A study of Caenorhabditis elegans with 60 samples.

Results

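The histone genes of *Caenorhabditis elegans* were taken as all genes whose WormBase symbol is his- followed by a number. These were 72 of the 31106 genes counted in every library. They comprise 17 genes of histone H2A, 17 of H2B, 16 of H3, 16 of H4, 5 of the replacement variant H3.3 (his-69, his-70, his-71, his-72 and his-74) and 1 linker histone of type H1, his-24. Other histone genes with names of another form, such as the H2A.Z gene htz-1, were not among them.

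Core histones H2A, H2B, H3 and H4 form the protein spool around which DNA is wound, and H1 binds the DNA between spools. Most core histone mRNAs are made during DNA replication, and they end in a stem-loop in place of a poly(A) tail, whereas H3.3 mRNAs are made throughout the cell cycle and carry a tail. CSR-1 is a germline Argonaute protein that binds 22G-RNAs, small RNAs antisense to germline mRNAs, and in *C. elegans* it is known to act on histone mRNAs, while WAGO-1 is an Argonaute of the pathway that silences transposons and some genes.

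Small RNAs bound to tagged Argonaute proteins were recovered by immunoprecipitation (IP) from whole worms and sequenced beside the small RNAs of the input lysate. CSR-1A, the long isoform, which is made in germ cells undergoing spermatogenesis, carried an HA tag in csr-1a(cmp165[2xHA::csr-1a]) animals with 3 IP and 2 input libraries. ALG-3 and ALG-4, Argonautes of spermatogenesis, were removed from animals with the same tag by alg-4(ok1041) on chromosome III and, on chromosome IV, csr-1a(cmp237[2xHA::csr-1a]) with alg-3(tm1155), with 3 libraries of each kind. In CSR-1A[15xAG], allele cmp208[15xAG] on the cmp165 background, alanines replace the arginines of the arginine-glycine motifs in the first exon, again with 3 libraries of each kind. CSR-1B, the short isoform, was recovered with a FLAG tag, csr-1b(cmp167[2xFLAG::csr-1]), in animals in which allele cmp135 removes the start codon of csr-1a. CSR-1A+B was recovered from csr-1b(cmp166[2xFLAG::csr-1]) animals, in which both isoforms are tagged. Each of these FLAG strains had 2 IP and 2 input libraries from L4 animals, in the last larval stage, 48 h after hatching, and as many from adults, 68 h after hatching, all at 20 °C. WAGO-1 was recovered from L4 animals with wago-1(cmp92[GFP::3xFLAG::wago-1]) that also carry mut-16(cmp41[mut-16::mCherry]), with 2 libraries of each kind. Untagged wild-type (N2) L4 animals served as controls, with 3 IP libraries for the HA and 3 for the FLAG antibody, 2 and 3 complete inputs, and 2 libraries of total small RNA. Poly(A)-selected mRNA was sequenced in 3 libraries each of wild-type L4 animals and of those with cmp135 or with csr-1a(cmp143), of which the latter also removes part of the promoter of csr-1a. Each tagged or mutant group is a single allele in a single strain, and the libraries of a group are labelled replicates without saying that they came from separate cultures, so p-values measure the spread between these libraries.

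Complete small RNA libraries held between 570862 and 17342340 counts on genes (median 5874916) and mRNA libraries between 16729691 and 21093818, and the shallowest was CSR-1B L4 IP replicate 1. Levels of small RNA are given as RPM, reads scaled to each library's total of reads mapped to the genome, and those of mRNA as CPM, counts scaled to the total of counted fragments. Log2 changes and adjusted p-values (Benjamini-Hochberg, over all genes tested) come from edgeR's quasi-likelihood test with TMM scaling, which centres each comparison differently from RPM. An IP was called higher or lower than its input at a change of at least 2-fold and an adjusted p of at most 0.05, and other comparisons at that adjusted p. A target also reached a mean IP level of 10 RPM and was not called with the same antibody in untagged animals. In the csr-1a mutants, csr-1 mRNA was 53.8 to 68.0 CPM in cmp135 and 44.04 to 56.2 CPM in cmp143, against 131 to 141 CPM in wild-type.

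The stem-loop was searched for in the 150 bases after each stop codon of the reference genome (WBcel235, gene models of RefSeq). It was found after 61 of the 72 histone genes and after no other of the 21904 protein-coding loci searched, so that 0.278% of loci hold it. The 11 histone genes without it were his-24, his-35, his-37, his-41, his-47, his-57, his-70, his-71, his-72, his-73 and his-74, which include 4 of the 5 H3.3 genes. Of the 59 stem-loops read here on chromosomes II to V and X, 51 were GGCCCTCTTTAGGGCC, 4 were GGCCCTCTTAAGGGCC (his-20, his-22, his-52 and his-54), 3 were GGCCCTCTTTAGAGCC (his-19, his-39 and his-53) and 1 was GGCCCTCTTTAAGGCC (his-69). Below are 26 bases around the stem-loop of 1 gene of each form, with his-38, the H4 gene with the largest change in the CSR-1A IP, beside his-59, the H3 gene with the largest change in the CSR-1A[15xAG] IP. Capitals mark the stem-loop, and the sequences are given as DNA on the strand of the gene.
his-59: ccaacGGCCCTCTTTAGGGCCacaat
his-38: ccaacGGCCCTCTTTAGGGCCacata
his-20: ccaacGGCCCTCTTAAGGGCCacaaa
his-39: ccaacGGCCCTCTTTAGAGCCacaaa
his-69: ccaacGGCCCTCTTTAAGGCCacaag

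These lie after the stop codons of the genes, at chrIV:7488706-7488731 (plus strand, his-59), chrX:7309505-7309530 (minus strand, his-38), chrV:8895044-8895069 (minus strand, his-20), chrV:8536748-8536773 (plus strand, his-39) and chrIII:4058309-4058334 (minus strand, his-69). The genes his-59 and his-38 share all 16 bases of the stem-loop, and the H2B gene his-20 and the short H2B gene his-39 differ from it by 1 base each. The stretches of his-20 and his-39 lie past the ends of the gene models that were counted.

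Copies of a histone type share sequence, and reads that fit several copies equally were placed on 1 of them at random. All 16 H4 genes, 15 of the 16 H3 genes and 15 of the 17 H2A genes encode the same protein within their type, and the 17 H2B genes fall into sets of 6, 5 and 4 with the same protein and others apart. The share of 22-base stretches in the exons that occur once in the genome had a median of 0.55% over H2A genes, 3.53% over H2B, 12.8% over H3 and 13.6% over H4, against 88.8% over H3.3 and 95.4% in his-24. Values of most single core histone genes are therefore shared with their copies, and sums over a type are given as well. Values of his-24 and of the H3.3 genes rest mostly on sequence of their own, as do those of some core histone genes, with shares of 95.5% in his-41 (H2B), 93.9% in his-37 (H4), 87.0% in his-35 (H2A), 78.1% in his-67 (H4) and 62.6% in his-59 (H3). Exons of 11 members overlap another gene, and those of his-41 overlap C50F4.6 on the same strand over 31.1% of their length. The genes lie in clusters, of which the largest were 14 genes at 8.85 Mb of chromosome V, 13 at 13.82 Mb of chromosome II and 12 at 11.32 Mb of chromosome IV, with neighbours at most 100000 bases apart.

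Over 21 L4 input and total libraries, his-24 held 60.6% of the mean small RNA of all 72 genes, with levels of 453 to 1581 RPM. Per kilobase of exon it had a mean of 1069 RPM, and the next highest were the H4 gene his-60 with 43.8, the H3.3 gene his-74 with 43.2 and the H2B genes his-62 with 41.6, his-66 with 40.3 and his-58 with 40.2 RPM per kilobase. The H3 gene his-25 had 31.8 and the H2A gene his-35 25.5 RPM per kilobase, and the lowest members were his-71 with 3.29 and his-69 with 2.28 RPM per kilobase. Exons of his-24 overlap 2 other genes, M163.16 and M163.19, over 18.9% of their length on the opposite strand. Counting used no option for strand, so small RNAs against his-24 mRNA and those from the other strand cannot be told apart. Because his-24 outweighs the other members, sums below are over the other 71 genes.

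The summed small RNA of these 71 genes was 669 and 741 RPM in CSR-1A inputs, between 394 and 523 RPM in inputs of CSR-1A[15xAG], and 503 and 467 RPM in L4 inputs of CSR-1B. The CSR-1A IP libraries held 2459, 3028 and 2534 RPM, a ratio of means of 3.79 to the input. Without ALG-3/4 the IP libraries held 3473, 2472 and 3098 RPM against 792, 831 and 740.2 RPM in the inputs, a ratio of 3.83. All IP libraries of these strains lay above all their inputs. The CSR-1A[15xAG] IP libraries held 8335, 9274 and 7063 RPM, a ratio of 17.9, and these were the highest histone sums of all small RNA libraries. At L4, CSR-1B IPs held 1842 and 2503 RPM, a ratio of 4.48. CSR-1A+B IPs at L4 held 1636 and 2283 RPM, a ratio of 4.21. In adults the sums were closer to the inputs, with ratios of 1.79 (CSR-1B) and 1.33 (CSR-1A+B). WAGO-1 IPs held 657 and 701 RPM against 790.2 and 756 RPM in inputs, so both lay below. On TMM-scaled counts the ratio of CSR-1A+B adults and that of WAGO-1 change direction, with log2 ratios of −0.21 and 0.20, and the other tagged strains keep theirs.

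**Figure D1:**
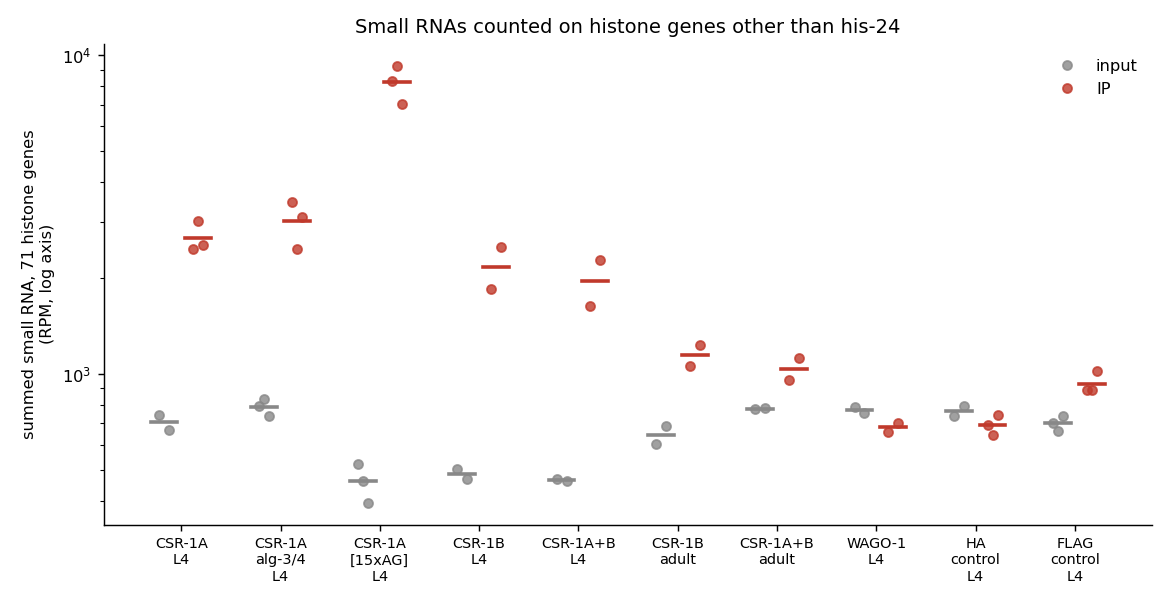
Summed small RNA of 71 histone genes, all but his-24, in RPM on a log axis, with a point for each input (grey) or IP (red) library of 10 groups of strain and stage and a bar at the mean. The 3 CSR-1A[15xAG] IP libraries sit between 7063 and 9274 RPM, above all others, and the IP and input points of the HA control overlap.

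The untagged controls gave the background of the IPs. In the HA control, no histone gene was called higher or lower of 71 tested, against 1.53% and 0.419% of all genes. At an unadjusted p under 0.05, 3 were higher and 1 was lower in edgeR, and DESeq2 called 3 higher and 0 lower. With the replicate number as a block, which leaves 1 residual degree of freedom per gene, 2 were called higher, his-24 and the H4 gene his-67. In the FLAG control, his-71 was called higher, 1 of 71 against 5.73% of all genes, and no histone gene was lower, against 1.09% (21 higher and 0 lower at an unadjusted p under 0.05, 1 and 0 in DESeq2). The sum over 71 genes was 689, 645 and 745 RPM in HA control IPs against 739 and 791 RPM in 2 inputs. In the FLAG control it was 889.9, 888 and 1019.6 RPM against 699.9, 664 and 736 RPM, a ratio of 1.33 with no overlap. So a ratio close to that of adult CSR-1A+B IPs was seen in L4 animals without a tag.

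In the CSR-1A IP, small RNAs of core histone genes were higher than in input, most often those of H4. Of 72 genes tested, 43 were called higher against 17.4% of all genes, and none was called lower against 8.52% (0 at an unadjusted p under 0.05 and 0 in DESeq2). These were 14 of 16 H4, 12 of 16 H3, 10 of 17 H2A, 6 of 17 H2B and 1 of 5 H3.3 genes. The median log2 change of the members was 1.18, beside 0.25 over all genes tested, and 41 passed the target rule, as did 13% of all genes. The H4 gene his-38 had 52.2, 55 and 44.8 RPM in the 3 IPs and 4.91 and 5.09 RPM in the 2 inputs. Its groups did not overlap, and in the HA control it had 3.77, 2.67 and 5.04 RPM in the IPs and 4.42 and 4.34 RPM in the inputs. The log2 change of his-38 was 2.79 (SE 0.25, adjusted p = 0.000645). The H4 gene his-18 had 68.8, 82.8 and 59.9 RPM against 7.87 and 6.41 RPM, a log2 change of 2.76 (SE 0.26, adjusted p = 0.000738). The H4 gene his-5 had 61.8, 76.5 and 58.7 RPM against 9.71 and 6.1 RPM, a log2 change of 2.52 (SE 0.28, adjusted p = 0.00105). All IP libraries lay well above both inputs for each of these 3 genes. The linker histone his-24 had 1510.0, 2145 and 1712 RPM against 1581 and 1127 RPM, so its groups overlapped.

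By type, the summed RPM of CSR-1A IPs was 5.34 times that of inputs for H4, 3.98 times for H3, 3.24 times for H2B, 2.9 times for H2A and 2.11 times for H3.3. The H4 sum was 955, 1003 and 912 RPM in IPs against at most 195 RPM in either input, with no overlap. Genes that carry the stem-loop had a summed ratio of 4.13 and the 10 others without it, his-24 aside, 2.13. All 13 genes of the cluster on chromosome II were called higher (summed ratio 4.68), as were 10 of 14 at 8.85 Mb of chromosome V (4.602), beside 17.4% of all genes. Copies within these clusters largely share reads. The count of 43 rests in part on 1 library, since it was 19 without CSR-1A input replicate 3. Between 19 and 46 genes were called over all single libraries left out.

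In animals without ALG-3/4, CSR-1A IPs called 17 of 72 histone genes higher against 16.6% of all genes, and none lower against 26.3% (2 at an unadjusted p under 0.05, 0 in DESeq2). Of the 17, 10 were H4 genes, 3 H2A, 3 H2B and 1 H3. The median over members was 0.47, beside −0.09 over all genes tested. On library size alone, under which the median of all genes is 0.81, 58 members were called higher, a count that moves with this scale. The H4 gene his-38 had 77.1, 33.2 and 67.1 RPM against 5.32, 5.02 and 4.87 RPM, a log2 change of 2.17 (SE 0.32, adjusted p = 0.000224). For his-18 the change was 1.57 and for his-5 1.55, and IP replicate 2 was the lowest of the 3 IPs for each of these 3 genes. The difference in enrichment between this strain and CSR-1A passed the test for no histone gene, against 2.04% of all genes higher and 0.049% lower. At an unadjusted p under 0.05, 1 was higher and 2 were lower in edgeR, and DESeq2 called 0 in either direction. The median difference was −0.33, so a difference was not detectable at this depth and replication.

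The largest histone enrichment was that of CSR-1A[15xAG]. Of 72 genes, 66 were called higher in its IP against 25.2% of all genes, and none lower against 26.9% (0 at an unadjusted p under 0.05 and 0 in DESeq2). They were all 16 H4, all 16 H3 and all 17 H2B genes, 15 of 17 H2A genes and his-71 and his-74 of H3.3, and all 66 passed the target rule, as did 19.5% of all genes. The median over members was 2.66, beside 0.03 over all genes. The H3 gene his-59 had 1085, 1266 and 802 RPM in IPs and 10.1, 7.66 and 9.56 RPM in inputs. Its log2 change was 5.57 (SE 0.24, adjusted p = 1.5e-09). In the CSR-1A IPs the same gene had 86.2, 127 and 86.9 RPM, so the lowest CSR-1A[15xAG] IP library lay above all of these. In the H3 gene his-42 the IPs held 338, 399 and 283 RPM against 8.14, 7.58 and 4.98 RPM, a log2 change of 4.36 (SE 0.18, adjusted p = 1.32e-09). The H4 gene his-38 held 84.6, 107 and 61.2 RPM against 1.75, 2.47 and 1.49 RPM, a log2 change of 4.18 (SE 0.25, adjusted p = 1.69e-08). None of these 3 genes had overlapping groups. With the replicate number as a block, the H3.3 gene his-69 was called too (1.01, adjusted p = 0.0133). The linker histone his-24, with 1244, 1168 and 1272 RPM against 607, 643 and 453 RPM, had a log2 change of −0.15 (SE 0.14, adjusted p = 0.346), although all IPs lay above all inputs in RPM.

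Summed by type, the ratio of CSR-1A[15xAG] IP to input was 31.1 for H3, 19.5 for H4, 12 for H2B, 11.1 for H2A and 4.41 for H3.3. H3 thus took the first place that H4 held in the CSR-1A IP, with sums of 3673, 4127 and 3070.1 RPM against 131, 113 and 105 RPM. Genes with the stem-loop had a ratio of 20.1 and those without it, his-24 aside, 5.33. The difference in enrichment, CSR-1A[15xAG] minus CSR-1A, was above 0 in all 72 genes in a joint fit of both strains, which is centred differently from their separate fits, with a median of 1.48 beside −0.02 over all genes. It passed the test for 50 genes against 7.48% of all genes, and for none in the other direction against 11.6% (0 at an unadjusted p under 0.05 and 0 in DESeq2). These were 15 H3, 12 H4, 12 H2B and 11 H2A genes, and none was an H3.3 gene. It was largest in his-59, at 3.23 (SE 0.40, adjusted p = 0.000145), followed by the H3 gene his-13, at 2.66 (SE 0.32, adjusted p = 0.000113), and the H2B gene his-39, at 2.52 (SE 0.40, adjusted p = 0.000637). For his-13 the CSR-1A[15xAG] IPs held 394, 434 and 332 RPM and the CSR-1A IPs 63.6, 86.8 and 70.6 RPM. For his-39 they held 27.8, 32.9 and 30.2 RPM and 9.76, 12.9 and 8.97 RPM. Inputs of the strains differed less, with his-13 at 10, 11.6 and 10.3 RPM and 20 and 18 RPM. The deposited headers place the libraries of the strains in sequencing run folders of different dates, so run and strain cannot be told apart in this difference. The summed oocyte markers (10 genes, none at 0) were 65.3 to 70.4 RPM in CSR-1A[15xAG] inputs and 219 to 243 RPM in CSR-1A inputs. Sperm markers (16 genes, none at 0) were lower too, at 157 to 199 RPM against 333 to 347 RPM. The part of both marker sets in the result was not tested. In whole worms, fewer cells of a type and less RNA per cell cannot be told apart.

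**Figure D2:**
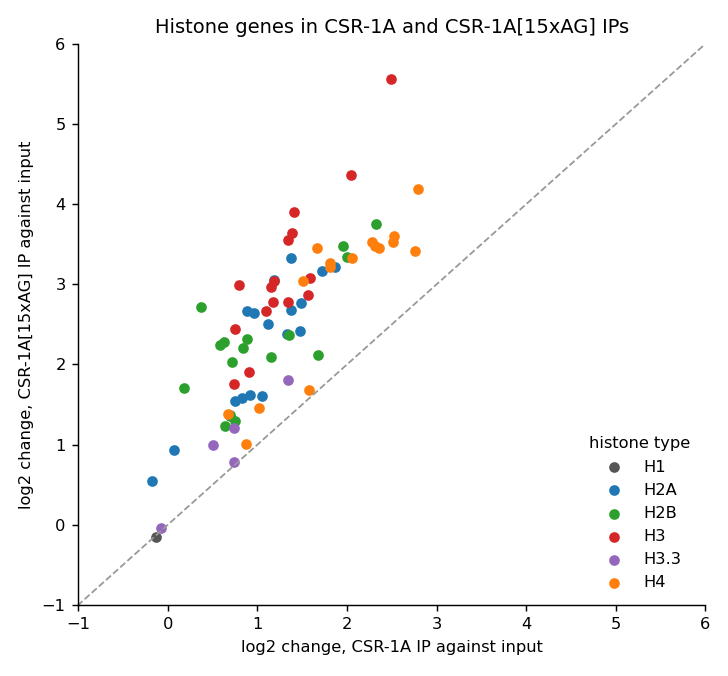
Log2 change of each of the 72 histone genes in the CSR-1A IP (horizontal axis) and the CSR-1A[15xAG] IP (vertical axis) against their own inputs, coloured by histone type, with a dashed line where both are equal. All points lie above the line but that of his-24, at −0.13 and −0.15, and his-59, at 5.57 on the vertical axis, is the highest.

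With CSR-1B at L4, the most enriched genes were H3.3 genes and an H2B set, and most other core histone genes were not enriched. Of 72 genes, 8 were called higher against 28.7% of all genes and 38 lower against 51.8%. The genes called higher were his-71, his-72 and his-74 of H3.3, 3 H2B genes and 1 gene each of H2A and H3. Of these, his-71 was also called higher in the FLAG control (log2 change 1.38, adjusted p = 0.0414 in edgeR), so it is not a target by the rule used here. Those called lower were 11 H2B, 11 H4, 7 H2A and 7 H3 genes, his-70 and his-24. The direction of many of these depends on the scale, since the median of all genes was −1.25 in the TMM fit and −0.17 on library size alone. The H4 gene his-10, for example, was called lower at −1.02, with 18.2 and 19.1 RPM in IPs and 10.9 and 9.55 RPM in inputs. The median over members was −1.07, close to that of all genes. The H3.3 gene his-74 had 265 and 397 RPM in IPs and 7.68 and 8.12 RPM in inputs. Its log2 change was 3.53 (SE 0.21, adjusted p = 2.65e-10). The H3.3 gene his-72 had 114 and 236 RPM against 5.18 and 6.63 RPM, a log2 change of 3.09 (SE 0.27, adjusted p = 2.46e-08). Both IPs were far above both inputs for these genes, and FLAG control IPs had 41.3, 38.3 and 45.4 RPM of his-74. The H2B gene his-48 had 149 and 228 RPM against 12.8 and 12.5 RPM, a log2 change of 2.05 (SE 0.20, adjusted p = 7.83e-08). At the other end, the H2B genes his-39, with 0 and 0.967 RPM against 2.85 and 2.92 RPM, and his-20, with 0 and 1.99 RPM against 4.77 and 4.38 RPM, lay below input in RPM too, with the value of 0 in the shallow replicate 1. Their log2 changes were −3.57 and −3.28, and that of the H2B gene his-54 was −3.28 (SE 0.37, adjusted p = 6.27e-07). Without the shallow IP replicate 1, 24 genes were called higher and 21 lower.

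**Figure D3:**
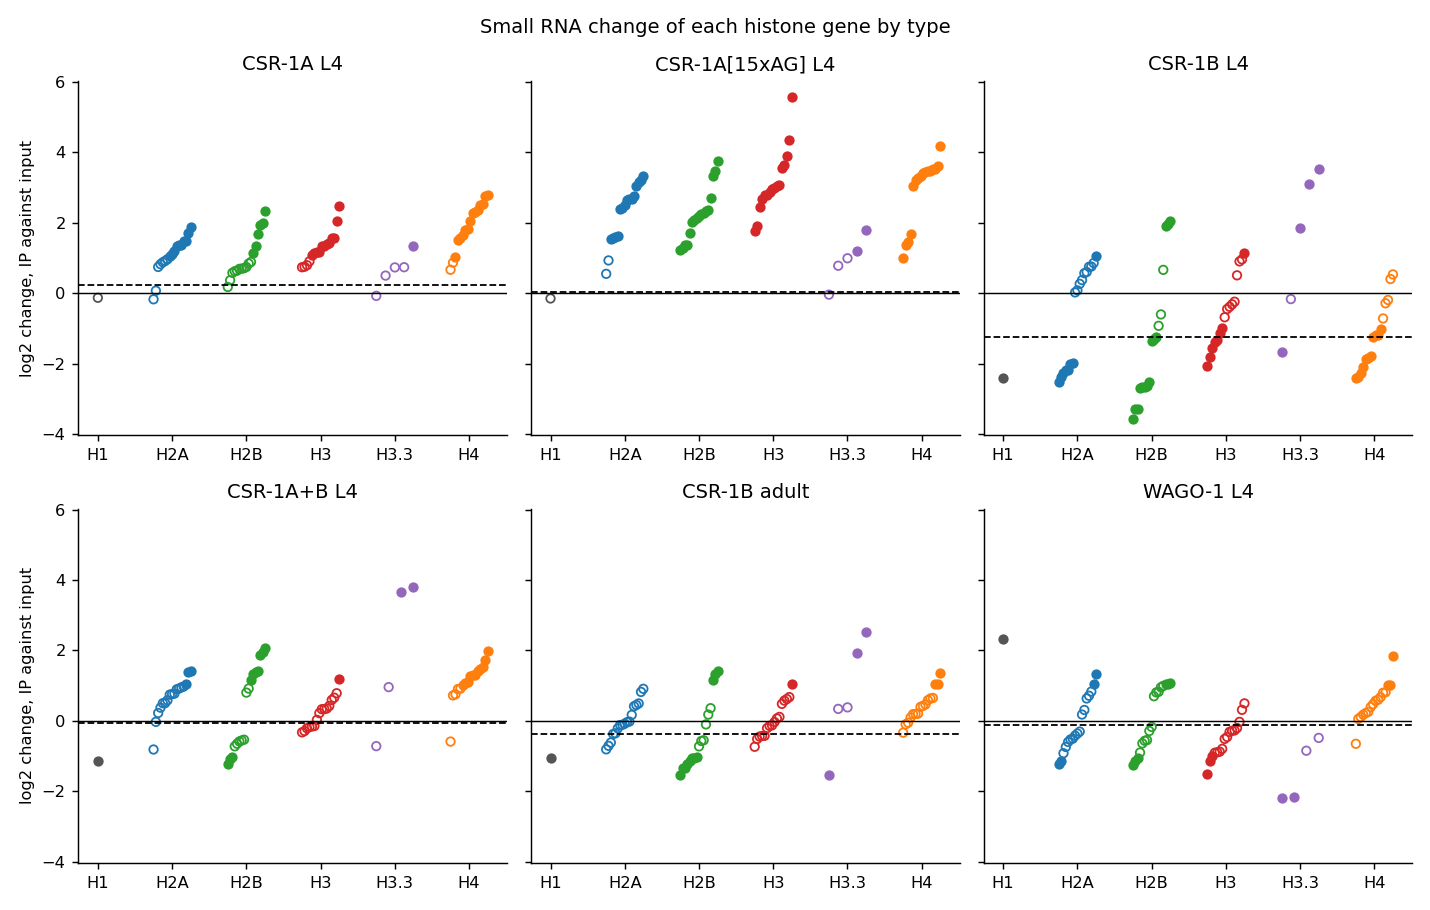
Log2 change of each histone gene in 6 IPs against their inputs, by histone type, with filled points called and open points not called, a solid line at 0 and a dashed line at the median of all genes tested. H4 and H3 genes lie highest in the CSR-1A and CSR-1A[15xAG] panels, and H3.3 genes (his-74 and his-72 at the top) in those of the FLAG-tagged CSR-1 strains.

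The H2B genes split by the place they lie in, a grouping made after their values were seen and given as a description. The H2B genes his-48, his-58 and his-66 of the cluster at 11.32 Mb of chromosome IV summed to 471 to 659 RPM in CSR-1B L4 IPs and 38.2 to 41.3 RPM in inputs, a ratio of 14.2. The 4 H2B genes at 8.85 Mb of chromosome V summed to 6.49 to 10.5 RPM against 20.0 to 20.2 RPM, a ratio of 0.424. So at one cluster both IPs lay above and at the other both lay below. In WAGO-1 IPs the same sets went the other way, with ratios of 0.426 and 1.70, and in CSR-1A IPs both were above input, with ratios of 2.36 and 2.49. For whole clusters, the 12 genes at 11.32 Mb of chromosome IV had a CSR-1B L4 ratio of 8.90 (5 called higher, 0 lower), the 14 at 8.85 Mb of chromosome V 0.815 (0 higher, 14 lower) and the 13 of chromosome II 1.90 (0 higher, 9 lower). Of all genes, 28.7% were called higher and 51.8% lower. The ratios are in RPM, while calls are on the TMM scale, on which the median of all genes was −1.25. In the clusters of chromosomes V and II, the median share of 22-base stretches that occur once in the genome was 0%. Calls of copies there largely share reads. The 3 genes at 9.54 Mb of chromosome V, his-35, his-37 and his-41, which lack the stem-loop, had a ratio of 0.678 and were all called lower.

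By type at L4, the CSR-1B ratio of summed RPM was 21 for H3.3, 5.55 for H2B, 3.42 for H3, 3.36 for H2A, 2.04 for H4 and 0.702 for his-24. The stem-loop genes had 3.7 and those without it, his-24 aside, 9.25, values given with no test. The latter sum was mostly his-74 and his-72, while his-35, his-37, his-41 and his-70 of the same group were called lower. The CSR-1A+B IP at L4 called 24 of 71 genes higher against 34.7% of all genes and 4 lower against 34.4%, with a median of 0.76 beside −0.07 over all genes, and 23 passed the target rule against 30.3%. The genes called higher were 11 H4, 7 H2B, 3 H2A, 2 H3.3 and 1 H3, and on library size alone none was lower. There, his-74 had 175 and 200.3 RPM against 6.83 and 6.58 RPM, a log2 change of 3.81 (SE 0.17, adjusted p = 7.2e-06). The H3.3 gene his-72 had a mean of 125 RPM in the IPs (SD 35.4, n = 2) against 5.39 and 4.45 RPM, a log2 change of 3.66 (SE 0.25, adjusted p = 1.55e-05). For his-48 the values were 55.1 and 132 RPM against 12 and 10.3 RPM, a log2 change of 2.07 (SE 0.38, adjusted p = 0.00172). These 3 genes led in both FLAG strains, and no IP library overlapped an input. By type the CSR-1A+B ratio was 11.7 for H3.3, 4.6 for H4 and 4.27 for H2B.

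To ask where the isoforms differ, the enrichment of CSR-1B was subtracted from that of CSR-1A. The difference passed the test upward for 45 of 72 histone genes against 37.6% of all genes, and downward for 6 against 19.1%. Those higher with CSR-1A were 15 of 16 H4, 13 H2B, 9 H3 and 7 H2A genes and his-24, and the median of 1.80 stood beside 1.08 over all genes. The 3 largest were the H4 genes his-28, at 4.38 (SE 0.52, adjusted p = 2e-05), his-18, at 4.29, and his-38, at 4.11. For his-28, CSR-1A IPs held 61.6, 67.8 and 49.7 RPM against 7.15 and 7.12 RPM in inputs, and CSR-1B IPs 7.79 and 5.48 RPM against 8.59 and 7.77 RPM. Higher with CSR-1B were his-74, at −3.18 (SE 0.59, adjusted p = 0.000738), his-72, at −2.75 (SE 0.64, adjusted p = 0.00283), and H2B genes with his-48, at −1.69 (SE 0.60, adjusted p = 0.0264). Inputs of his-74 held 29.8 and 27.6 RPM in the CSR-1A strain and 7.68 and 8.12 RPM in the CSR-1B strain. Those of his-72 held 18.3 and 13.9 RPM and 5.18 and 6.63 RPM. Oocyte markers (10 genes) summed to 219 to 243 RPM in CSR-1A inputs and 55.3 to 55.4 RPM in CSR-1B L4 inputs. Sperm markers (16 genes) summed to 333 to 347 RPM and 186 to 194 RPM. The part of the inputs in these differences was not tested. With the replicate number as a block, 2 genes were lower in place of 6, and his-48 was −1.35 (adjusted p = 0.0769). The CSR-1A and CSR-1B libraries were counted with different versions of featureCounts (1.6.5 and 1.5.1) and carry different tags, so isoform, tag and counting version cannot be told apart.

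In adults, the H3.3 genes his-74 and his-72 were again the most enriched, though less than at L4. The L4 inputs of these 2 strains held 6.58 to 8.12 RPM of his-74, below the median of 27.8 RPM over 21 L4 input and total libraries. The adult CSR-1B IP called 9 of 72 genes higher against 33.6% of all genes and 10 lower against 38.6%, and all 9 passed the target rule against 29.2%. The adult CSR-1A+B IP called 3 higher against 28.2% and 8 lower against 28.1%, and all 3 passed the target rule against 24.9%. The H3.3 gene his-74 had 153 and 193 RPM against 23.4 and 26 RPM for CSR-1B, a log2 change of 2.54 (SE 0.14, adjusted p = 5.45e-09). In CSR-1A+B adults it had 95.5 and 117 RPM against 22.2 and 22.5 RPM, a log2 change of 1.89 (SE 0.14, adjusted p = 7.64e-06). The H3.3 gene his-72 followed, with changes of 1.93 (adjusted p = 2.67e-07) and 1.22 (adjusted p = 0.00298). IP and input libraries of his-74 and his-72 did not overlap in either strain. The H2B gene his-48 changed by 1.41 (adjusted p = 2.57e-06) with CSR-1B and the H4 gene his-60 by 1.11 (adjusted p = 0.000925) with CSR-1A+B. Lower in the IP were the H3.3 gene his-70, at −1.54 (adjusted p = 0.000247) with CSR-1B and −1.42 (adjusted p = 0.00164) with CSR-1A+B, and the H2B gene his-8, at −1.54 and −1.27. The H2B genes his-4, at −1.34 with CSR-1B, and his-39, at −1.94 with CSR-1A+B, were lower too. In the fit with the replicate number as a block, his-69 was also called lower with CSR-1A+B (−1.25, adjusted p = 0.0169).

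The adult enrichment minus that at L4 passed the test for 11 genes upward against 14.4% of all genes and 6 downward against 5.36% in CSR-1B, and for 1 upward against 15.5% and 26 downward against 13.4% in CSR-1A+B. The upward share in CSR-1B was thus near that of all genes. In CSR-1B, 8 of the 11 were H4 genes, led by his-28 at 2.13 (SE 0.45, adjusted p = 0.00262) and his-50 at 1.82, and the H2A gene his-51 was at 1.72. In that strain his-28 had 7.79 and 5.48 RPM in L4 IPs and 9.89 and 12.1 RPM in adult IPs. The 6 downward were his-71 at −2.15, his-72 at −1.69 and his-74 at −1.50 of H3.3 and 3 H2A genes led by his-47 at −1.97. Of these, his-71 was also called higher in the FLAG control. On library size alone these CSR-1B counts were 4 upward and 27 downward. In CSR-1A+B the largest decreases were his-72 at −2.22 (SE 0.40, adjusted p = 0.00257) and the H2A genes his-61 at −2.05 and his-33 at −1.94, and his-24 was the 1 upward, at 0.83 (adjusted p = 0.0488). Summed ratios in adults were 5.18 and 3.51 for H3.3 and 1.62 and 1.67 for H4 in CSR-1B and CSR-1A+B, and IP and input sums of H2A overlapped in both strains. Adult soma markers (7 genes) summed to 1961 to 3004 RPM in adult inputs and to at most 129.7 RPM in L4 inputs, and their part in the stage difference was not tested.

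In the WAGO-1 IP the linker histone his-24 was the most enriched histone gene. It had 3484 and 3676 RPM in IPs and 818 and 797 RPM in inputs, a log2 change of 2.32 (SE 0.06, adjusted p = 1.68e-12). The untagged HA control IPs also held more his-24 than their inputs, with 2825, 3351 and 2233 RPM against 1237 and 821 RPM, a log2 change of 1.51 (SE 0.35, adjusted p = 0.0513), which passed the test with the replicate number as a block (1.33, adjusted p = 2.4e-11 in edgeR). In the FLAG control, the antibody used for WAGO-1, IPs held 1545, 1357 and 1666 RPM against 1085, 917 and 1306 RPM, a change of 0.31 (adjusted p = 0.302). The overlapping antisense gene M163.16 moved with his-24, at 639 to 698 RPM in WAGO-1 IPs against 132 to 140 RPM in inputs, and its part in the result was not tested. In CSR-1B L4 IPs, his-24 had 731 and 792 RPM against 1073 and 1097 RPM, a change of −2.40 (SE 0.16, adjusted p = 8.39e-10). So his-24 lay above input with WAGO-1 and below it with CSR-1B, and the difference of the enrichments was 4.49 (SE 0.29, adjusted p = 1.65e-09).

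Of 71 histone genes tested, WAGO-1 IPs called 9 higher against 34.7% of all genes and 10 lower against 35.8%, and 5 passed the target rule, as did 16.8% of all genes. On library size alone 2 were higher and 28 lower, and without WAGO-1 input replicate 1 the count of higher genes was 2. Beside his-24, the H4 gene his-67 was higher, with 20.5 and 24.8 RPM against 7.17 and 7.16 RPM (log2 change 1.84, adjusted p = 3.06e-08). For his-67 the FLAG control IPs held 11.4, 10.2 and 13.2 RPM against 7.68, 8.47 and 8.61 RPM, and the HA control IPs 18, 18.6 and 14.5 RPM against 8.28 and 7.15 RPM. The H2A gene his-19 had 8.03 and 6.06 RPM against 2.58 and 3.58 RPM, a change of 1.32 (adjusted p = 0.000251). Depleted were his-74, with 9.77 and 10.6 RPM against 53.6 and 51.1 RPM and a change of −2.18 (SE 0.12, adjusted p = 6.52e-10), and his-72, with 6.42 and 7.55 RPM against 36.2 and 35.5 RPM and a change of −2.17 (SE 0.13, adjusted p = 1.4e-09). The H3 gene his-63 fell from 16.3 and 12.7 RPM in inputs to 4.62 and 4.43 RPM in IPs, a change of −1.51 (adjusted p = 1.68e-06). Libraries of these genes did not overlap between IP and input. Of the 14 genes at 8.85 Mb of chromosome V, 5 were called higher, and of the 12 at 11.32 Mb of chromosome IV, 5 were called lower. Both shares are near those of all genes. WAGO-1 minus CSR-1B enrichment passed the test for 31 genes upward against 45.2% of all genes and 21 downward against 35.6%. The H2B genes his-54, at 3.91 (adjusted p = 2.5e-07), and his-39, at 3.86 (adjusted p = 3.37e-06), followed his-24 upward, and downward were his-74, at −5.97 (adjusted p = 7e-09), his-72, at −5.54 (adjusted p = 1.02e-07), and the H2B gene his-66, at −3.44 (adjusted p = 1.8e-06). These libraries were counted with featureCounts 1.6.5 for WAGO-1 and 1.5.1 for CSR-1B, so version and Argonaute cannot be told apart, and on library size alone the counts were 18 upward and 37 downward. Inputs of his-74 held 53.6 and 51.1 RPM for WAGO-1 and 7.68 and 8.12 RPM for CSR-1B, and their part in its difference was not tested.

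**Figure D4:**
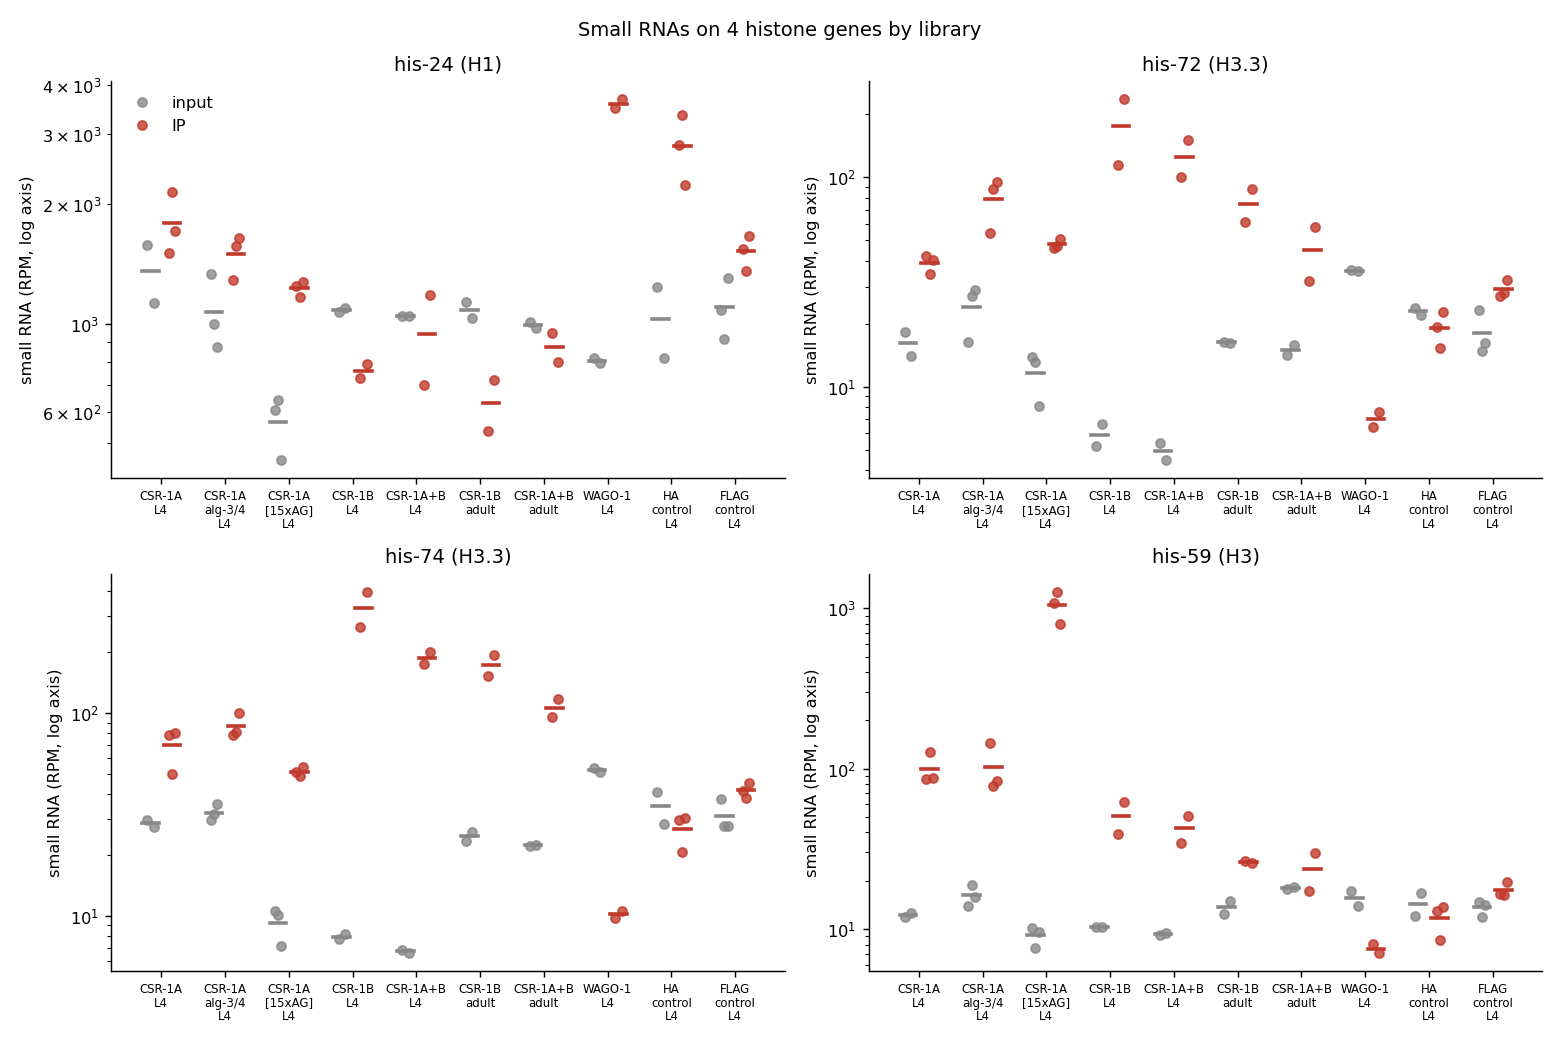
Small RNA of his-24 (H1), his-72 and his-74 (H3.3) and his-59 (H3) in RPM on a log axis, with a point for each input (grey) or IP (red) library of 10 groups and a bar at the mean. The 2 WAGO-1 IPs lie above their inputs for his-24 and below for his-72 and his-74, and the 3 CSR-1A[15xAG] IPs of his-59 lie between 802 and 1266 RPM.

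Among inputs, the H3.3 gene his-70 had the largest called change of the histone genes in each of 4 comparisons between strains or stages. It had 23.9 and 27.5 RPM in wild-type total small RNA, 21.9 and 22.5 RPM in CSR-1A inputs and 6.39, 6.48 and 4.54 RPM in inputs without ALG-3/4. The change without ALG-3/4 was −1.61 (SE 0.20, adjusted p = 0.000897), and no library overlapped. It was the 1 histone gene lower there against 18.2% of all genes, while 28 were higher against 11.5%, a count that fell to 3 without CSR-1A input replicate 2 and to 3 on library size alone. The 28 included his-33 at 1.28, his-53 at 1.14 and his-48 at 1.13. In the CSR-1B strain, which lacks CSR-1A, his-70 had 9.06 and 10.8 RPM in L4 inputs against 16 and 15.2 RPM in the CSR-1A+B strain. This change of −0.59 (SE 0.12, adjusted p = 0.0237) was the only 1 called of 71 tested, against 4.27% of all genes lower, and none was called higher against 2.18% (9 at an unadjusted p under 0.05, 0 in DESeq2, which also called 0 lower). Sperm markers (16 genes, none at 0) summed to 186 to 194 RPM in CSR-1B and 222 to 237 RPM in CSR-1A+B L4 inputs, and to 111 to 164 RPM without ALG-3/4 against 333 to 347 RPM in CSR-1A inputs, and their part in the result was not tested.

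From L4 to adult, his-70 fell to 4.39 and 5.46 RPM in CSR-1B inputs and 3.67 and 4.44 RPM in CSR-1A+B inputs, changes of −1.95 (SE 0.17, adjusted p = 3.15e-07) and −2.63 (SE 0.15, adjusted p = 1.92e-09). In adult inputs, 5 histone genes were higher against 38.2% of all genes and 48 lower against 39.2% in the CSR-1B strain, and 23 higher against 41.8% and 22 lower against 41.4% in the CSR-1A+B strain. On library size alone 15 were higher and 25 lower in the CSR-1B strain, and 12 lower in the CSR-1A+B strain. The fall was led after his-70 by the H3 genes his-25 at −1.78 (adjusted p = 8.12e-08) and his-13 at −1.78 (adjusted p = 5.08e-08) in the CSR-1B strain, and by his-13 at −1.41 and his-9 at −1.17 in the CSR-1A+B strain. The rise included his-74 at 0.71 (adjusted p = 0.000117) and 1.05 (adjusted p = 1.65e-06) in the 2 strains, his-72 at 0.55 and the H4 gene his-38 at 0.48 in CSR-1B, and the H2A genes his-33 at 1.09 and his-35 at 0.98 in CSR-1A+B. Sums over 71 genes were instead above L4 in RPM, by ratios of 1.33 and 1.67, and turned on TMM-scaled counts to log2 ratios of −0.62 and −0.12.

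**Figure D5:**
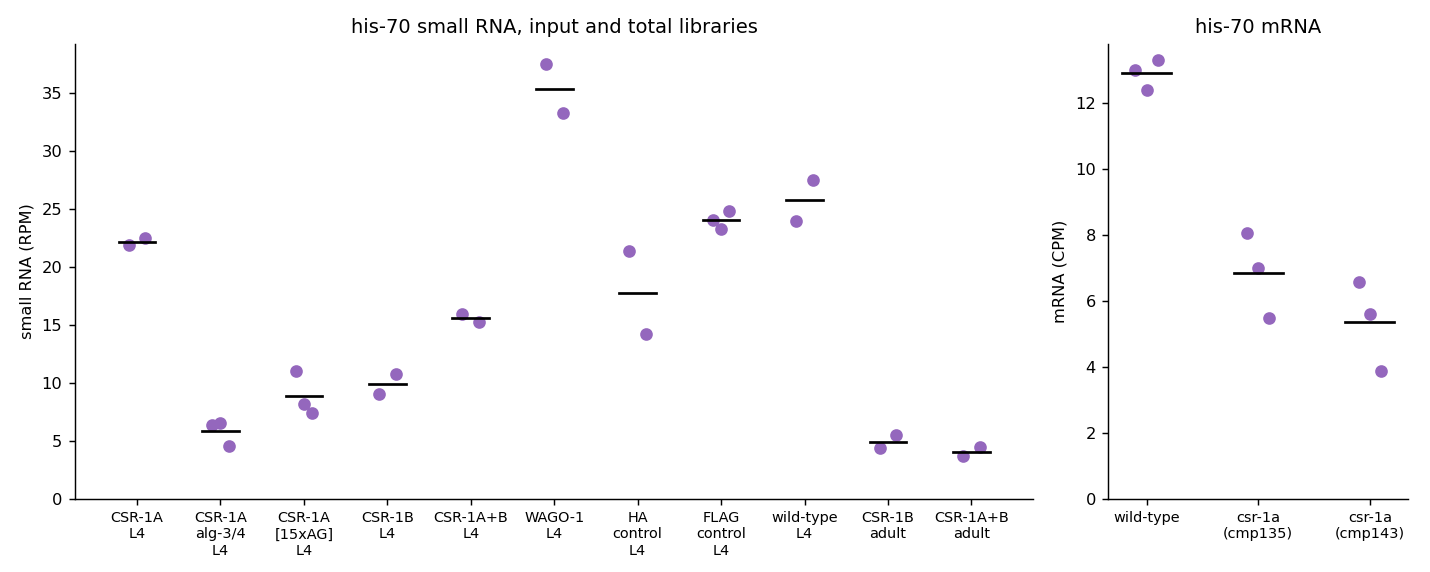
Small RNA of his-70 in input and total libraries of 11 groups (left, RPM) and his-70 mRNA in 3 strains (right, CPM), with a point for each library and a bar at the mean. The inputs without ALG-3/4 sit between 4.54 and 6.48 RPM, and all csr-1a mutant mRNA libraries lie below all wild-type ones.

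In poly(A)-selected mRNA of wild-type L4 animals, the 11 genes without the stem-loop held 86.4% of the histone CPM (median 67.2 CPM, from 0.758 to 182.4), and the 61 with it 13.6% (median 0.486 CPM, highest 19.7 in his-60, 10 at 0). Selection for tails and the dropping of fragments that map to several places both bear on these levels, and 47 of 72 members passed the filter on low counts. Against wild-type, 6 genes were higher in csr-1a(cmp135), against 18% of all genes, and 2 lower, against 14.8%. In csr-1a(cmp143), 3 were higher, against 15.5%, and 3 lower, against 10.8%. The H3.3 gene his-70 was lower in both, with 13, 12.4 and 13.3 CPM in wild-type, 8.05, 6.98 and 5.48 CPM in cmp135 and 6.58, 5.6 and 3.86 CPM in cmp143. Its changes were −0.79 (SE 0.21, adjusted p = 0.0136) and −1.13 (SE 0.21, adjusted p = 0.00285), with no overlap. The H2B gene his-41, which lacks the stem-loop, had 70.6, 64.9 and 66.1 CPM in wild-type, 42.8, 45.8 and 43.4 CPM in cmp135 and 43.8, 45.1 and 53.1 CPM in cmp143, changes of −0.49 (adjusted p = 0.00204) and −0.37 (adjusted p = 0.0125). The H2A gene his-35 was lower in cmp143, at 133, 115 and 143 CPM against 171, 193 and 183 CPM, a change of −0.35 (adjusted p = 0.031). These 3 genes carry no stem-loop. Their wild-type means were 12.9 (his-70), 67.2 (his-41) and 182.4 CPM (his-35), against the median of 0.486 CPM over stem-loop genes. The part of the mRNA level in these calls was not tested.

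Higher in cmp135 were stem-loop genes, among them the H3 genes his-63, at 1.92 (adjusted p = 0.0418), and his-40, at 1.26 (adjusted p = 0.0111), and the H4 gene his-10, at 1.22 (adjusted p = 0.0249). For his-40 the CPM was 1.37, 2.51 and 2.63 in wild-type and 5.45, 4.68 and 4.33 in cmp135. In cmp143 the H2B gene his-8 was higher, at 0.897, 0.952 and 1.12 CPM against 0.263, 0.379 and 0.487 CPM, a change of 1.51 (adjusted p = 0.0138). The summed CPM of the 61 stem-loop genes was 99.99, 131 and 150.3 in wild-type, 187, 205 and 157 in cmp135 and 243, 104 and 189.7 in cmp143, so cmp135 lay above wild-type and cmp143 overlapped it. For the 10 others apart from his-24 it was 634, 683 and 692 in wild-type, 618, 619.5 and 560.2 in cmp135 and 585, 522 and 585 in cmp143, and both alleles lay below. The counts of higher genes turned on single libraries, falling to 1 and 0 without wild-type replicate 1, while 18 were higher in cmp143 without its replicate 2. Oocyte markers (10 genes, none at 0) summed to 52.2 to 54.9 CPM in wild-type, 194 to 343 CPM in cmp135 and 78.5 to 261 CPM in cmp143. Adult soma markers (7 genes, none at 0) summed to 154 to 251, 3530 to 5090 and 1959 to 5534 CPM. Sperm markers (16 genes, none at 0) summed to 430 to 496 CPM in wild-type, 334 to 449 CPM in cmp135 and 167 to 357 CPM in cmp143. So for sperm markers cmp135 overlapped wild-type and cmp143 lay below it. The part of these markers in the results, that of his-70 among them, was not tested.

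Genes whose products handle histones or their mRNAs were higher in IPs of CSR-1B. Their lists were chosen with earlier results of these data known, so the counts are given as a description. The shares of all genes higher in adult IPs were 33.6% (CSR-1B) and 28.2% (CSR-1A+B). Of 16 genes for histone supply and 3′ end formation, which include cdl-1, the stem-loop binding protein, all 16 were higher in the IPs of CSR-1A+B and of CSR-1B at both stages, with medians at L4 of 2.83 (CSR-1A+B) and 2.34 (CSR-1B), beside −0.07 and −1.25 over all genes, and in adults of 1.96 and 2.37, beside −0.15 and −0.38. In CSR-1A IPs 2 were higher, in those without ALG-3/4 0, and in CSR-1A[15xAG] IPs 8, with none lower in the 3 strains, beside 17.4%, 16.6% and 25.2% of all genes higher. Inputs of these 16 genes summed to 555 to 582 RPM in the CSR-1A strain and 158 to 167 RPM in the CSR-1B strain at L4. The part of these inputs in the contrast was not tested. WAGO-1 IPs called 0 higher and 11 lower, with a median of −1.85, beside 34.7% of all genes higher and 35.8% lower, and both control IPs 0 in either direction. Of 11 histone genes with other names (hil-1 to hil-8, htz-1, hcp-3 and cpar-1), 9 were tested, and 6 were higher and 2 lower in the CSR-1B IP at L4, as in the CSR-1A+B IP, while 0 were called in the CSR-1A IP. The shares of all genes higher and lower were 28.7% and 51.8% with CSR-1B, 34.7% and 34.4% with CSR-1A+B and 17.4% and 8.52% with CSR-1A. Of 5 factors that make or use the 22G-RNAs of CSR-1, 4 were found by symbol, and 3 of them were higher in the IPs of CSR-1A+B and of CSR-1B at both stages, 2 in the CSR-1A[15xAG] IP and 0 in the CSR-1A IP, and 3 were lower in the WAGO-1 IP.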

How the data were processed

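Small RNAs of 18 to 30 nucleotides were treated with 5′ polyphosphatase, trimmed with the FASTX-Toolkit and aligned by the authors with Bowtie2 2.2.2 under default settings, which place a read with several equal hits on 1 of them at random, to the WS258 genome. The deposited small RNA files hold expected counts per gene, since the authors' featureCounts (1.5.1 or 1.6.5, per the file headers) split reads fractionally among overlapping genes, with no strand option, and they were rounded to whole numbers for testing. Poly(A)-selected mRNA was trimmed with Trimmomatic 0.36, aligned with HISAT2 2.1.0 and deposited by the authors as counts of fragments (featureCounts 2.0.0), without strand and without fragments that map to several places. RPM was computed from the total of reads mapped to the genome, which the study gives per library, and CPM from the total of counted fragments.

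Groups followed the GEO labels, and 1 of 60 libraries (HA control input replicate 2) was left out because its file holds only 14424 of 31106 genes. Inputs of CSR-1A are labelled replicates 2 and 3, while the file headers number them differently. Complete small RNA libraries numbered 50, with 570862 to 17342340 counts on genes, and 9 mRNA libraries held 16729691 to 21093818. Members were all genes named his- and a number, and the members and lists were chosen with earlier results of these data known. In 22 comparisons, groups were tested in R 4.3.3 with edgeR 4.0.16 (quasi-likelihood, TMM, filterByExpr), each fit on all genes with Benjamini-Hochberg adjustment over all genes tested. Only the groups compared entered each small RNA fit, differences in enrichment were interaction contrasts, and the mRNA alleles shared 1 fit. The procedure was tested on simulated data. Standard errors are the log2 change over the square root of F. Genes named are, by rule, his-24, his-35, the H3.3 genes, the 2 highest of each type in inputs and up to 3 called genes in each direction with no overlap of libraries, and others were named after their values were seen. Sums over types carry no test. Stem-loops were sought with Python 3.11.15 and Biopython 1.88.

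The study took each input from a lysate used for an IP, and the pairing by replicate number was assumed for the block. In CSR-1A[15xAG], IP and input libraries of unlike number correlated by up to 0.146. Deviations from group means of same-numbered IP and input libraries correlated by 0.072 and 0.104 (CSR-1A), 0.176 to 0.401 (without ALG-3/4), −0.16 to −0.01 (CSR-1A[15xAG]), 0.103 (CSR-1B L4), 0.036 (WAGO-1), 0.376 and 0.525 (HA control) and 0.167 to 0.426 (FLAG control). Alternatives were DESeq2 1.42.0, RLE factors, library size alone, no filter, the replicate block, other denominators and target minimums, and each library left out.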

Additional observations from a re-analysis of the deposited data

Results flagged for a closer look

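Differences in enrichment between groups, tested as interactions in edgeR over all genes, passed an adjusted p of 0.05 for histone genes in these comparisons, and each count stands here for that reason beside the share of all genes that passed. Between CSR-1A[15xAG] and CSR-1A, 50 histone genes were higher in the mutant, against 7.48% of all genes. Between CSR-1A and CSR-1B, 45 genes were higher with CSR-1A, against 37.6%, and 6 lower, against 19.1%, among them his-74 and his-72. From L4 to adult, CSR-1B enrichment was higher for 11 genes, a share near the 14.4% of all genes, and lower for 6, against 5.36%. On library size alone these counts were 4 and 27. CSR-1A+B enrichment was higher in adults for 1 gene, his-24, against 15.5%, and lower for 26, against 13.4%, and on library size alone for 0 and 55. Between WAGO-1 and CSR-1B, 31 genes were higher with WAGO-1, against 45.2%, and 21 lower, against 35.6%, shares near those of all genes, and on library size alone the counts were 18 and 37.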

How the results depend on the processing

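Sums over the 71 genes other than his-24 (log2 ratios) moved with the denominator. From RPM to counts on genes to TMM-scaled CPM, they went from 1.92 to 1.46 and 1.21 for CSR-1A, 1.94 to 1.46 and 0.69 without ALG-3/4, 2.16 to 1.37 and 0.81 for CSR-1B L4, 2.08 to 1.45 and 0.78 for CSR-1A+B L4, 0.84 to 0.25 and 0.42 for CSR-1B adults, 0.42 to −0.0916 and −0.21 for CSR-1A+B adults, −0.19 to −0.58 and 0.20 for WAGO-1, 0.41 to 0.0117 and −0.62 for adult against L4 inputs of CSR-1B, 0.74 to 0.41 and −0.12 for those of CSR-1A+B (0.70 over members that overlap no other gene), and 0.06 to 0.17 and 0.20 for L4 inputs of CSR-1B against CSR-1A+B. CSR-1A[15xAG] went from 4.16 to 2.84 and the input without ALG-3/4 from 0.16 to 0.55 on TMM-scaled CPM, and the FLAG control from 0.41 to 0.25 on counts on genes. At a minimum of 50 RPM, targets fell from 41 to 23 for CSR-1A, 17 to 11 without ALG-3/4, 23 to 12 for CSR-1A+B L4, 9 to 5 for CSR-1B adults and 5 to 2 for WAGO-1, which had 9 at 1 RPM and 9 with RPM per counts on genes.

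Counts of called genes (higher, then lower) changed as follows, and the cause was not tested. On library size alone, they were 58 higher without ALG-3/4, 23 and 17 for CSR-1B L4, 40 and 0 for CSR-1A+B L4, 5 higher for CSR-1B adults, 14 lower for CSR-1A+B adults, 2 and 28 for WAGO-1, 4 and 27 for CSR-1B adult minus L4, 0 and 55 for CSR-1A+B adult minus L4, 18 and 37 for WAGO-1 minus CSR-1B, 15 and 25 for adult inputs of CSR-1B, 12 lower for adult inputs of CSR-1A+B, and 3 and 3 for inputs without ALG-3/4. With RLE factors, they were 14 higher for CSR-1B L4, 4 lower for both adult IPs, 17 and 15 for CSR-1B adult minus L4 and 0 and 41 for CSR-1A+B adult minus L4. Without a filter, they were 27 and 13 for CSR-1B L4, 1 lower for CSR-1A+B L4, 2 lower for CSR-1B adults, 5 and 3 for CSR-1A+B adults, 3 and 17 for WAGO-1, 3 higher for the HA control, 7 and 19 for CSR-1B adult minus L4, 0 and 50 for CSR-1A+B adult minus L4, 19 and 34 for WAGO-1 minus CSR-1B, 10 higher for adult inputs of CSR-1B, 1 higher for L4 inputs of CSR-1B against CSR-1A+B and 5 higher in cmp143 mRNA. DESeq2 gave 13 and 23 for CSR-1B L4, 4 lower for both adult IPs, 3 higher for the HA control, 6 and 12 for CSR-1B adult minus L4, 0 higher for CSR-1A+B adult minus L4, 3 higher for adult inputs of CSR-1B, 12 lower for those of CSR-1A+B, 0 lower for L4 inputs of CSR-1B against CSR-1A+B, 16 higher for inputs without ALG-3/4 and 5 higher in cmp143 mRNA. The sign turned for his-70 on library size alone, from −0.04 to 1.07 for CSR-1A[15xAG] and from 0.85 to −0.47 for WAGO-1 minus CSR-1B (−0.38 without a filter).

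With the replicate number as a block, CSR-1A minus CSR-1B had 2 lower genes, the HA control 2 higher, and his-69 and his-24 gained and his-48 lost calls as given above. Same-numbered mRNA libraries correlated by −0.385 to 0.292 and share only a number, and there the block gave 4 higher in cmp135 and 2 in cmp143, with his-35 at −0.35 (adjusted p = 0.0617). It changed no other named call.

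With each library left out in turn, counts of higher genes ranged over 19 to 46 for CSR-1A (19 without input replicate 3), 6 to 24 for CSR-1B L4 (24 without IP replicate 1), 2 to 10 for WAGO-1 (2 without input replicate 1), 0 to 3 for the HA and 0 to 1 for the FLAG control, 2 to 21 for CSR-1B adult minus L4, 0 to 2 for CSR-1A+B adult minus L4, 19 to 36 for WAGO-1 minus CSR-1B, 0 to 2 for L4 inputs of CSR-1B against CSR-1A+B, 3 to 34 for inputs without ALG-3/4 (3 without CSR-1A input replicate 2), 1 to 11 in cmp135 and 0 to 18 in cmp143 mRNA (1 and 0 without wild-type replicate 1, 18 without cmp143 replicate 2). Counts of lower genes ranged over 0 to 1 without ALG-3/4, 21 to 34 for CSR-1B L4, 2 to 4 for CSR-1A+B L4, 5 to 9 for CSR-1B adults, 2 to 7 for CSR-1A minus CSR-1B, 1 to 16 for CSR-1B adult minus L4, 10 to 43 for CSR-1A+B adult minus L4, 13 to 28 for WAGO-1 minus CSR-1B, 0 to 1 for L4 inputs of CSR-1B against CSR-1A+B, 1 to 2 for inputs without ALG-3/4, and 1 to 2 in cmp135 and 1 to 3 in cmp143 mRNA. Where a group kept 1 library, it was assumed to vary like the others.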
